A study of Mus musculus with 4 samples.

Results

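The cells described here are the T, natural killer (NK) and innate lymphoid cells of a mouse bone marrow progenitor sort. They were chosen by their own transcripts. A barcode belonged to them when the UMIs (unique molecular identifiers, 1 per captured transcript molecule) of 11 genes summed to at least 4 and those of 3 B cell genes (Cd79a, Ms4a1 and Bank1) to at most 1. The 11 genes were Il2rb, Klre1, Klra4, Klra8, Klrb1c, Ccl5, Xcl1, Cd3e, Cd3g, Cd3d and Skap1. The rule found 504 cells among 26943 kept cells, of which 197 had at least 1 UMI of Cd3e, Cd3g or Cd3d (CD3+ cells) and 307 had none (CD3- cells). Because these genes chose the cells, their levels are given as a description only.

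All mice were wild type and all carried E0771 cells, a mouse mammary adenocarcinoma line, injected 3 days before the operation. In the surgery group the femoral artery was ligated, which makes the limb ischemic, and in the sham group the mice had a sham operation. Marrow was taken on day 9 after the operation and sorted for progenitors, which lack lineage markers and carry Kit, with or without Sca1. The transcripts were counted by PIPseq, a droplet method that needs no microfluidic chip. Hashtag oligos named 4 surgery and 4 sham replicates, and 2 of each group were loaded into each of 2 captures, which the hashtag names call batches. The labels' treatment field instead calls the first capture ligation and the second sham. The replicates are grouped here by their hashtag names, since the design text gives 4 hashtagged replicates in each group. Whether a replicate came from a single mouse or from pooled mice is not in the labels, nor are age and sex, so p-values measure only the spread between these replicates.

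NK cells kill infected or transformed cells with granzymes and perforin and read their targets through paired activating and inhibitory receptors of the Klr families. T cells recognise antigen through a T cell receptor that signals through the CD3 chains, whereas innate lymphoid cells have no such receptor and act mainly through cytokines. NK cells and innate lymphoid cells arise in the marrow from progenitors that use the transcription factors Zbtb16, Tcf7, Gata3 and Tox, and mature T cells return there from the thymus.

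The hashtag oligos are shown because they carry the group of every cell. Each is 15 bases long and is printed 5′ to 3′ in lower case. No base is capitalised because the whole oligo serves as the tag. The labels give the same oligo to the same name in both captures.
surgery replicate 1: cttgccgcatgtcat
surgery replicate 2: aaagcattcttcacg
sham replicate 1: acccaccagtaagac
sham replicate 2: ggtcgagagcattca

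The names of the hashtags did not match a pattern in the transcripts, in the cells described here and in all others. In the other kept cells, 4 sets of genes were each at least 1.5 times as high in 1 replicate of each capture as in every other replicate. A set of 45 genes joined capture 2 surgery replicate 1 to capture 1 sham replicate 1, and a set of 55 genes joined capture 2 surgery replicate 2 to capture 1 sham replicate 2. A set of 36 genes joined capture 1 surgery replicate 1 to capture 2 sham replicate 1, and a set of 29 genes joined capture 1 surgery replicate 2 to capture 2 sham replicate 2. Replicates of the same group in the 2 captures shared 0 to 2 such genes.

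The sets of 45, 55 and 36 genes stood out more in the T, NK and innate lymphoid cells than in the rest, and the set of 29 genes less. The set of 45 genes, which includes Lsamp and Gm32592, summed to 2410 CPM (a gene's UMIs summed over the cells of a replicate and scaled to 1e+06 gene UMIs) in these cells of capture 2 surgery replicate 1 and 3819 CPM in those of capture 1 sham replicate 1. In the other 6 replicates that sum was at most 261 CPM. The set of 55 genes, with Fah, Fam122c and Krt19, summed to 2842 CPM in capture 2 surgery replicate 2 and 3578 CPM in capture 1 sham replicate 2, against at most 214 CPM elsewhere. The set of 36 genes, with Nr1h4, summed to 2231 CPM in capture 1 surgery replicate 1 and 1724 CPM in capture 2 sham replicate 1, against at most 187 CPM elsewhere. The set of 29 genes, with Spock1 and Nudt12os, summed to 3807 CPM in capture 1 surgery replicate 2 and 3133 CPM in capture 2 sham replicate 2, against 712 to 1274 CPM elsewhere. Much of the level outside its own replicates belongs to Tox, a lymphoid transcription factor that was at 797 CPM in the T, NK and innate lymphoid cells and 12.2 CPM in the other cells. In the other cells the set of 29 genes was at 420 and 283 CPM in its own replicates, against 56.2 to 64.9 CPM elsewhere.

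The sets moved with the hashtag counts. Median hashtag counts in the T, NK and innate lymphoid cells were 5720 to 8233 per cell, and 1800 to 2058.5 in the other cells of the same replicates. Across the T, NK and innate lymphoid cells of a replicate that carries a set, the Spearman correlation between a cell's hashtag counts and its UMIs of the set was 0.708 to 0.898. It was 0.511 to 0.721 across the other cells. These are descriptions across 20 to 103 cells (T, NK and innate lymphoid) that share a library and differ in depth. The 4 pairs also have the same place in the order of the hashtags in the 2 count matrices, where capture 1 lists sham before surgery and capture 2 lists surgery before sham. What makes the pairs was not tested.

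Tex2 and Thbs1 were known from earlier results, grouped by the same names, to differ between the groups in the other kept cells, so their values are no check of the names. Tex2 was at 138, 130, 131 and 120 CPM in the surgery replicates and 97.0, 73.2, 64.4 and 66.3 CPM in the sham replicates. Thbs1, which encodes thrombospondin, was at 18.2, 12.4, 23.9 and 13.1 CPM in the surgery replicates and 6.59, 0.970, 1.40 and 2.05 CPM in the sham replicates. The groups follow the names throughout, as the labels give them. In the other kept cells of capture 1 sham replicate 1, Xist, the RNA of the inactive X chromosome, was at 29.2 CPM, against 860 to 1181 CPM in the other 7 replicates, and the Y-linked Eif2s3y was at 5.87 CPM, against at most 0.15 CPM. That replicate also carries the set of 45 genes, and each result that turned or crossed its threshold without it is given as such.

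**Figure D1:**
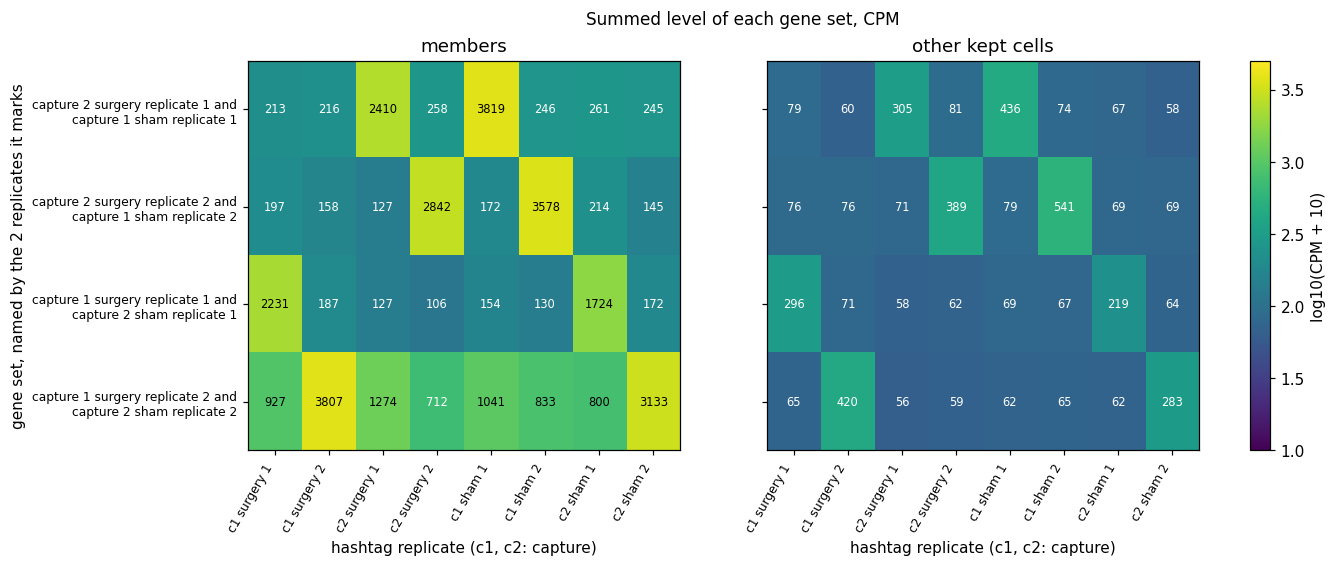
Summed level, in CPM, of each of the 4 hashtag-linked gene sets (rows) in each of the 8 replicates (columns; c1 and c2 are the captures), for the T, NK and innate lymphoid cells (members, left) and the other kept cells (right), with colour on a log10 scale. On both sides each set is highest in the pair that carries it, such as 2842 CPM in c2 surgery 2 and 3578 CPM in c1 sham 2 for the set of 55 genes in the members.

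Capture 1 gave 14678 kept cells and capture 2 gave 12265, with 246 and 258 T, NK and innate lymphoid cells. The captures shared 4 kept barcodes, and 0 of these were T, NK or innate lymphoid cells. These cells were shallow: their median was 2764 to 4208.5 UMIs per replicate, against 5860.5 to 12404 UMIs over all kept cells of a replicate. Their summed counts were 86310 to 467476 UMIs per replicate. Another 28 barcodes with enough marker UMIs carried several hashtags, 24 in capture 1 and 4 in capture 2, and were left out, while none of the barcodes with enough marker UMIs lacked a hashtag.

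The rule rested mainly on NK genes and on genes that T and NK cells share. Skap1, an adaptor of T cell receptor signalling, had a UMI in 446 of the 504 cells. Il2rb, the beta chain of the interleukin-2 and interleukin-15 receptors, had one in 417. The chemokine genes Ccl5 and Xcl1 had UMIs in 393 and 341 cells, and Ccl5 alone gave 28.5% of all UMIs of the 11 genes. The NK receptor genes Klrb1c (which encodes NK1.1) and Klre1 had UMIs in 324 and 323 cells, and the activating receptor genes Klra8 (Ly49H) and Klra4 (Ly49D) in 155 and 131. Of the CD3 chains, Cd3d had a UMI in 154 cells, Cd3g in 140 and Cd3e in 79.

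UMIs of these genes were few in erythroid and granulocyte cells outside the chosen cells. Cells that met the rule had already been left out of both groups. The low shares therefore follow in part from the rule and are a description only. Klre1 had a UMI in 64.1% of the chosen cells at a median depth of 3347 UMIs, whereas it had one in 0.193% of erythroid cells (2076 cells, median 14814 UMIs) and 0.176% of granulocyte cells (13628 cells, median 14081.5 UMIs). Ccl5 was in 0.482% of erythroid and 0.646% of granulocyte cells, and Il2rb in 0.0963% and 0.22%. Skap1 had the highest such background of the 11 genes, with a UMI in 4.43% of erythroid and 4.79% of granulocyte cells. Nkg7, a granule protein gene often read as an NK marker, did not set the cells apart here: it had a UMI in 82.7% of them and in 83.0% of granulocyte cells, at 1258 and 773 CPM.

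Cells with a sum of 3 or 4 UMIs seldom held Klrk1, an NK gene outside the rule. A sum of exactly 4 UMIs was found in 14 cells, with a median depth of 3169.5 UMIs, and 28 cells just outside had a sum of 3, with a median of 5619.5 UMIs. The activating receptor gene Klrk1 (NKG2D) had a UMI in 7.14% of the cells at 4 and in 0% of those at 3, against 70.4% of all chosen cells. In the 17 cells with a sum of 6 it was already in 47.1%. Nkg7, which did not set the cells apart, was in 50% of the cells at 4 and 46.4% of those at 3. The sum ran from 4 to 151 UMIs per cell, with a median of 26. In 37 cells a single gene of the 11 made up the whole sum, and 24 of these 37 were in the sixth of the sub-clusters described later, a granulocyte-gene cluster.

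Among the 20 genes highest in these cells relative to the other kept cells, 13 were not part of the rule, although they come from the same cells and so give no independent test. The T cell receptor constant genes Trbc1 and Trbc2 were at 522 CPM, against 1.5 CPM in the other cells, and at 354 CPM, against 0.438 CPM. Klrd1 (CD94), which pairs with NKG2 receptors, was at 530 CPM, against 1.31 CPM. Ncr1, which encodes the activating receptor NKp46, was at 325 CPM, against 0.588 CPM. Gzma, a granzyme, was at 384 CPM, against 0.136 CPM. Cd7, a surface protein of T and NK cells, was at 444 CPM, against 1.001 CPM, and Ms4a4b at 1248 CPM, against 5.29 CPM. The long noncoding RNA Gm2682 was at 768 CPM, against 0.330 CPM, and had a UMI in 397 cells. CPM of UMIs are not scaled by gene length, so levels are compared between cells and not between genes.

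**Figure D2:**
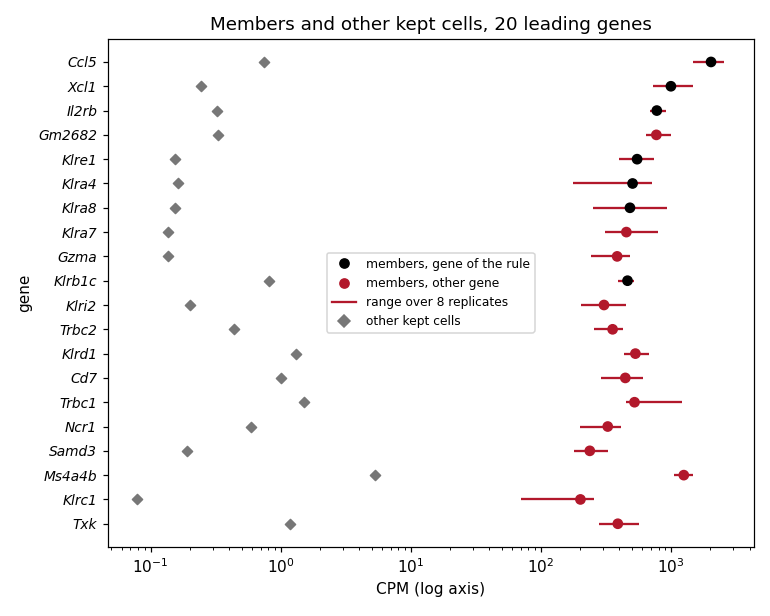
Level, in CPM on a log axis, of the 20 leading genes in the T, NK and innate lymphoid cells (members; points for all cells together, black for genes of the rule and red for others, lines for the range over the 8 replicates) and in the other kept cells (diamonds). The lowest replicate of each gene lies above the diamond of the same gene, and Ccl5 was at 2021 CPM in the members and 0.746 CPM in the other kept cells.

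Transcripts of Kit were found in part of the cells. Kit, the receptor that the sort selected on, had a UMI in 176 of the 504 cells (34.9%), at 130 CPM, and in 50.2% of the deeper other cells, at 108 CPM; in erythroid cells it had one in 44.2%, at 73.0 CPM. The depths of these cells differ, so no order is read from the shares. Kit was at 150 CPM in the NK-like, 159 CPM in the T-like and 26.7 CPM in the cycling sub-cluster described later.

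By role, the activating side of NK recognition was broadly expressed. Klrk1 had a UMI in 355 of the 504 cells, Ncr1 in 270, Klrc2 (NKG2C) in 211, Cd226 (DNAM-1) in 195 and Cd244a (2B4) in 198. The adaptor genes Tyrobp, Fcer1g and Hcst, through which activating receptors signal, had UMIs in 340, 348 and 327 cells, but Tyrobp and Fcer1g were also high in the other kept cells, at 324 and 233 CPM. Of the inhibitory receptors, Klrc1 (NKG2A) had a UMI in 211 cells, Klra7 (Ly49G) in 213 and Cd96 in 130. The maturation marker Klrg1 and the inhibitory receptor gene Tigit were rare, with UMIs in 13 cells each.

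Cytotoxic effector transcripts were uneven. Ctsw, a granule-associated cathepsin, had a UMI in 261 cells, Gzma in 142, Fasl (Fas ligand) in 116 and Prf1 (perforin) in 113, while Gzmb had one in 29 and Gzmk in 7. Interferon gamma (Ifng) had a UMI in 79 cells, lymphotoxin beta (Ltb) in 289 and Tnf in 24. The type 2 and type 3 cytokine genes Il5, Il13, Il17a and Il22 had no UMI in any of the 504 cells, which allows up to 0.595% of cells with a UMI of each gene, counting error only. The interleukin-18 receptor genes Il18r1 and Il18rap had UMIs in 207 and 249 cells, and the interleukin-7 receptor gene Il7r in 100.

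Among adhesion and migration genes, the integrin genes Itga4 and Itgal had UMIs in 382 and 378 cells, and the chemokine receptor genes Ccr2 and Cxcr3 in 264 and 115. S1pr5, a receptor known for the exit of NK cells from marrow, had UMIs in 11 cells. Id2, which represses E proteins in innate lymphocytes, had a UMI in 386 cells, Tox in 397, Tcf7 in 287, and the T-box factor genes Eomes and Tbx21 in 192 and 187.

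CD3 chain transcripts were found in cells with NK genes as well as in cells with T cell receptor genes. Of the 197 CD3+ cells, 118 had no Cd3e UMI. These 118 cells resembled the CD3- cells in their NK genes: Ncr1 had a UMI in 57.6% of them and in 62.5% of the CD3- cells, Tyrobp in 76.3% and Klrk1 in 74.6%. The T cell receptor alpha constant gene Trac had a UMI in 17.8% of these 118 cells and in 1.30% of the CD3- cells. In the 79 cells with a Cd3e UMI, Trac was found in 36.7%, Trdc in 43.0% and Trgc2 in 41.8%, while Ncr1 was found in 12.7%. Median depths were 3724 UMIs in the 118 cells, 3403 UMIs in the 79 cells and 3186 UMIs in the CD3- cells. Trbc1 had a UMI in 69.1% of the CD3- cells. The division by CD3 chains was part of the rule, and these values are a description.

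Between CD3+ and CD3- cells, genes of the T cell receptor were among those that differed, apart from the CD3 genes. Averaged over the 8 replicates, Trac was at 150 CPM in CD3+ cells and 2.17 CPM in CD3- cells. Trgc2, a gamma chain constant gene, was at 108 CPM in CD3+ cells and 2.22 CPM in CD3- cells, and Trdc, the delta chain constant gene, at 202 CPM in CD3+ cells and 38.5 CPM in CD3- cells. All 3 were higher in the CD3+ cells of 8 of 8 replicates. Themis, which tunes receptor signals during T cell selection, was at 172 CPM in CD3+ cells and 33.2 CPM in CD3- cells, higher in 7 of 8 replicates. Genes lower in CD3+ cells were Zbtb16, at 30.4 CPM in CD3+ cells and 196 CPM in CD3- cells, Rora, at 59.1 and 293 CPM, and the basophil protease gene Mcpt8, at 9.72 and 990 CPM. These genes were highest in the small sub-clusters 6 and 7 described next. Cd8a had a UMI in 20 of the 504 cells, Cd8b1 in 14, Cd4 in 1 and Foxp3, the factor of regulatory T cells, in 1.

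Clustering of the 504 cells alone, without the hashtag-linked genes, gave 7 sub-clusters. With those genes kept there were 8, among them a cluster with 28 cells of capture 2 surgery replicate 2 and 40 of capture 1 sham replicate 2, and another with 38 cells of capture 1 surgery replicate 2 and 42 of capture 2 sham replicate 2. The 7 are therefore used. Cluster 1 was NK-like and held 193 cells with a median of 3604 UMIs. Its leading genes were the receptor genes Klra8, Klra9, Klra4 and Klra3, the chemokine genes Ccl3 and Ccl4, Gzma and Prf1. Klrk1 had a UMI in 181 of its cells, Ncr1 in 152, Eomes in 110 and Gzma in 101. It held 67 CD3+ cells, of which 66 had no Cd3e UMI, and Trac had a UMI in 6 of its 193 cells.

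Cluster 4 was T-like and held 109 cells, 104 of them CD3+, with a median of 3248 UMIs. Cd3e, Trac, Cd8b1, Trgc2, Themis and Cd8a were among its 10 leading genes. Cd3e had a UMI in 73 of its cells, Trbc2 in 89, Trdc in 45, Trac in 44, Trgc2 in 35 and Cd8a in 18, and Cd4 in none. The cluster thus held transcripts of both the alpha-beta and the gamma-delta receptor. NK receptor genes were there too, with Klrk1 in 44 and Klrd1 in 66 of the 109 cells, but Gzma was in 3.

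Cluster 7 was small and innate lymphoid progenitor-like, with 16 cells and a median of 4735 UMIs. Zbtb16 and Rora, which encode PLZF and ROR-alpha and mark innate lymphoid precursors, had UMIs in all 16 cells, at 2366 and 2979 CPM, against 28.9 and 64.1 CPM in the other T, NK and innate lymphoid cells. Tcf7 had a UMI in 16 of the 16 cells, Gata3 in 15, Il7r in 11 and Tox2 in 12. Klra4, Klra7, Klra8, Klrk1, Gzma and Eomes had a UMI in none. A list of 10 innate lymphoid progenitor genes summed to 10902 CPM. Other lists were present too. A list of 12 genes of type 2 innate lymphoid cells, Rora and Gata3 among them, summed to 4603 CPM. The list of 17 T cell genes summed to 4592 CPM, against 6455 CPM in cluster 4. Trbc2 had a UMI in 9 of the 16 cells and Themis in 5, at 412 CPM. Ccl5 gave 74.2% of the UMIs by which the rule found these cells.

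Cluster 5, with 72 cells and a median of 2807 UMIs, is called by its leading genes Klrb1b and Cd74. Klrb1b, an inhibitory NK receptor gene (NKR-P1D), had a UMI in 64 of the 72 cells, at 1132 CPM, against 75.4 CPM in the other T, NK and innate lymphoid cells. Cd74, the invariant chain of MHC class II, had a UMI in 14. A list of 10 B cell genes summed to 761 CPM in cluster 5, against 14.2 to 93.3 CPM in the other clusters. A dendritic list of 7 genes, Cd74 among them, summed to 899 CPM, against 34.2 to 327 CPM. Over all chosen cells of capture 1 sham replicate 2, which gave 22 cells of cluster 5, the B cell list was at 486 CPM. In the other replicates it was at most 71.9 CPM, and what made this level was not tested. Klrk1 was found in 65 cells, Ncr1 in 55 and Il7r in 32, while Eomes was in 8, Gzma in 4 and Klra4 in none. S100a4, Tmem176b and Gpr183, a receptor for oxysterols that guides lymphocytes, also led the cluster.

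Cluster 3 was led by the cell division genes Ccna2, Mki67, Birc5 and Top2a and held 42 cells with a median of 6917 UMIs. Mki67 had a UMI in 38 of them, and NK genes were present as well, with Klrd1 in 38, Klrk1 in 34 and Gzma in 30, whereas Trac was in 3. Cluster 2 held 43 cells of low depth, with a median of 1416 UMIs, which was 0.171 of the median of their own replicates. Klrk1 had a UMI in 30 of its cells, but of the 10 genes that led it by fold none was in the marker lists. Klra10, a Ly49 family gene outside the lists, was at rank 9 with a UMI in 5 cells, and the cluster was left unnamed.

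Cluster 6 went against the label. Its 29 cells had a median of 10175 UMIs and were led by Mcpt8 and Prss34, proteases of basophils, and by Ctsg, Elane and Prtn3, proteases of granulocyte progenitors. Elane was at 7407 CPM there, against 245 CPM in the other T, NK and innate lymphoid cells, and Mcpt8 at 4188 CPM, against 9.96 CPM. Klrk1, Ncr1, Gzma and Klra7 had a UMI in 1 cell each. These cells entered the rule mainly through Ccl5 and Skap1. They remain among the 504 by the rule, and the comparison of the groups is also given without them. Outside this cluster, Elane still had a UMI in 119 of the 193 NK-like cells, at 246 CPM, against 172 CPM in erythroid cells of the same captures, where 84.8% of cells had a UMI; the part of free RNA in this was not tested.

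**Figure D3:**
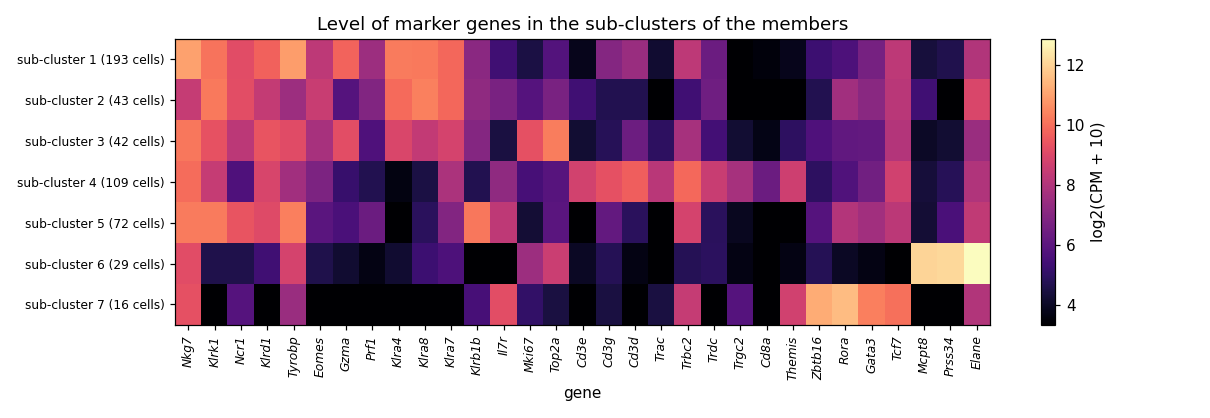
Level of marker genes (columns) in the 7 sub-clusters of the T, NK and innate lymphoid cells (rows), as colour on a scale of log2(CPM + 10). Among these genes, Gzma and Prf1 are highest in NK-like sub-cluster 1, the CD3, Trac and Trgc2 genes in T-like sub-cluster 4, Zbtb16 and Rora in sub-cluster 7, and Elane, Mcpt8 and Prss34 in sub-cluster 6.

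The Ly49 receptor genes were combined differently from cell to cell. Each NK cell is known to express a subset of this family, which reads MHC class I. Among the 193 NK-like cells, Klra7 had a UMI in 126, Klra8 in 108, Klra4 in 92, Klra9 in 87 and Klra3 in 55. Of these 5 genes, 0, 1, 2, 3, 4 and 5 had a UMI in 8, 38, 53, 58, 30 and 6 cells. Klra4 and Klra8, both activating, were found together in 64 cells, Klra4 alone in 28, Klra8 alone in 44 and neither in 57. Klra8 and the inhibitory Klra9 were found together in 53 cells. A missing UMI at this depth does not show that a receptor is absent. The family members are near-identical in part: of the 60-base stretches of their annotated transcripts, 18.9% in Klra9, 12.4% in Klra3, 8.76% in Klra8, 2.61% in Klra4 and 0% in Klra7 occurred in another Klra gene. Reads from the shared stretches cannot be given to a single gene, so joint detection of Klra9 with Klra3 or Klra8 is uncertain. In T-like cluster 4, 69 of 109 cells had no UMI of these 5 genes, and in cluster 7 all 16 had none.

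Whether the operation changed how many of these cells were in the sort was asked first. In the surgery replicates, these cells made up 2.13% and 1.95% of kept cells in capture 1 and 1.06% and 1.5% in capture 2. In the sham replicates they made up 1.21% and 1.48% in capture 1 and 2.82% and 2.56% in capture 2. Both surgery replicates were above both sham replicates in capture 1 and below both in capture 2, so the groups overlapped. The share averaged 1.66% ± 0.480 in the surgery replicates and 2.02% ± 0.793 in the sham replicates (SD, n = 4 each), which did not differ beyond the spread (exact permutation test, two-sided, p = 0.486, with 0.0286 the smallest p this design allows). The difference was 0.698 percentage points in capture 1 and -1.41 percentage points in capture 2. Counting error was smaller than this: the 95% Wilson interval was 0.688% to 1.63% in the lowest replicate (20 of 1884 cells) and 2.33% to 3.41% in the highest (103 of 3654 cells).

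Set out by hashtag order instead, the first 2 hashtags of each matrix gave 1.06% to 1.5% and the last 2 gave 1.95% to 2.82%. These are the pairs that share the gene sets, and no test is given because the order was noticed in the data. With cells thinned to 2000 UMIs, 102 to 879 shallower cells per replicate left out and a marker minimum of 2 UMIs, the shares were 1.82%, 1.63%, 0.954% and 1.47% in the surgery replicates and 1.36%, 1.48%, 2.69% and 2.12% in the sham replicates.

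**Figure D4:**
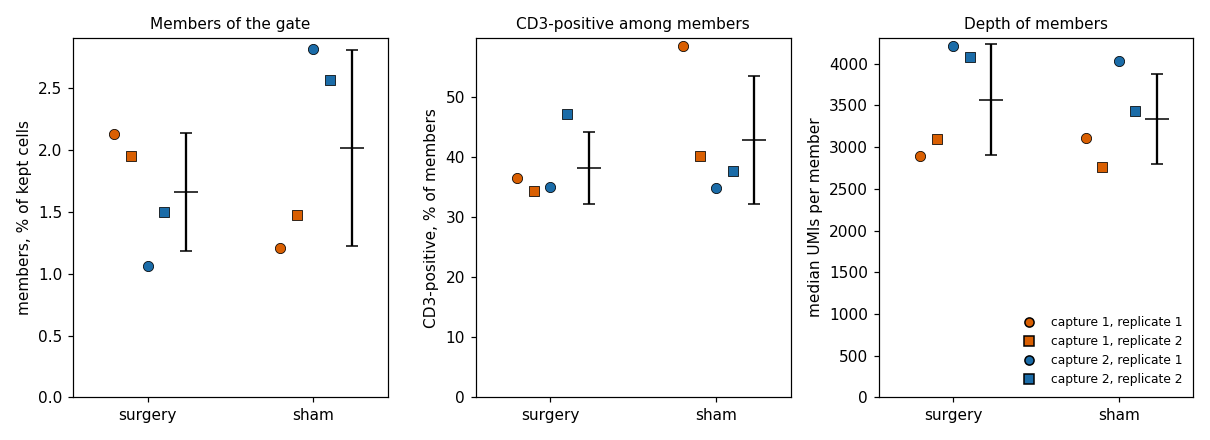
For each of the 8 replicates (points, surgery left of sham), the T, NK and innate lymphoid cells (members) as a percentage of kept cells, the CD3+ cells as a percentage of members, and the median UMIs per member, with the group mean and SD as bars. In the left plot both surgery replicates of capture 1 lie above both sham replicates and both of capture 2 below, with means of 1.66% in surgery and 2.02% in sham.

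CD3+ cells made up 36.5%, 34.3%, 35.0% and 47.2% of the T, NK and innate lymphoid cells in the surgery replicates, and 58.6%, 40.2%, 35.0% and 37.8% in the sham replicates. The means were 38.3% ± 6.01 in the surgery replicates and 42.9% ± 10.7 in the sham replicates (SD, n = 4 each, exact permutation test, two-sided, p = 0.514). The sham value of 58.6% belongs to capture 1 sham replicate 1, the replicate with little Xist, where 17 of 29 cells were CD3+. Without it the difference turned to 0.589 percentage points. As shares of kept cells, CD3+ cells were 0.632% ± 0.179 in the surgery replicates and 0.815% ± 0.194 in the sham replicates (n = 4 each, exact permutation p = 0.229). CD3- cells were 1.03% ± 0.336 in the surgery replicates and 1.20% ± 0.618 in the sham replicates (n = 4 each, exact permutation p = 0.6). By sub-cluster, the surgery and sham replicates held 82 and 111 cells of NK-like cluster 1, 42 and 67 of T-like cluster 4, 21 and 51 of the Klrb1b cluster 5, and 7 and 9 of cluster 7. The surgery replicates held 63, 67, 20 and 53 chosen cells, and the sham replicates 29, 87, 103 and 82. Cluster 1 made up 34.9% to 45.3% of these cells in surgery and at most 43.9% in sham, so the groups overlapped. As a share of kept cells, surgery minus sham was 0.401 percentage points for cluster 1 in capture 1 and -0.627 in capture 2. For cluster 7 it was 0.0336 and -0.0468. For cluster 4 it was -0.0107 in capture 1 and -0.213 in capture 2, and for cluster 5 it was -0.00817 and -0.265. The capture 1 differences of clusters 4 and 5 were thus small. In capture 1 the surgery replicates held 7 and 7 cells of cluster 5 and the sham replicates 2 and 22. Of the 51 sham cells of cluster 5, 22 came from capture 1 sham replicate 2. Counts of sub-clusters were not tested, since the genes compared between the groups also define them.

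Transcript levels were compared between surgery and sham replicates on the summed counts of the T, NK and innate lymphoid cells of each replicate, with the capture as a covariate. By edgeR's quasi-likelihood test with Benjamini-Hochberg adjustment, 0 of 4874 genes passed an adjusted p of 0.05 (0% called), and DESeq2 also called 0. At an unadjusted p under 0.05 there were 183 genes, 3.75% of those tested, 97 higher and 86 lower in surgery. The groups did not overlap in 60 genes higher (1.23%) and 70 lower (1.44%) in surgery. The captures, the Xist-low replicate and the crossed gene sets move with these values in part, and their share in them was not tested.

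The gene with the smallest p was Phkb, a regulatory subunit of phosphorylase kinase, which activates glycogen breakdown. It was at 107, 68.3, 46.3 and 102 CPM in the surgery replicates and 36.2, 29.6, 38.5 and 29.6 CPM in the sham replicates. Every surgery value was above every sham value, and the log2 difference was 1.38 ± 0.30 (SE), with edgeR's unadjusted p = 0.000202 and an adjusted p of 0.982. Dram2, a lysosomal membrane protein gene linked to autophagy, was at 8.20, 10.8, 11.6 and 18.9 CPM in the surgery replicates and 72.4, 38.5, 42.8 and 40.4 CPM in the sham replicates, again without overlap (log2 difference -1.75 ± 0.44, edgeR adjusted p = 0.9996). Cyb5b, a cytochrome b5 of the outer mitochondrial membrane, was at 116 ± 24.1 CPM in surgery and 57.7 ± 8.56 CPM in sham. H2bc4, a histone gene, was at 59.5 ± 18.7 CPM in surgery and 19.01 ± 13.2 CPM in sham (SD, n = 4 each). Cd63, a granule tetraspanin, was at 299, 338, 11.6 and 303 CPM in the surgery replicates and 36.2, 83.0, 154 and 29.6 CPM in the sham replicates, so the groups overlapped through the replicate at 11.6.

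Genes of other lineages were uneven between replicates. Elane was at 1674 ± 1224 CPM in the surgery replicates and 893 ± 586 CPM in the sham replicates (log2 difference 0.90 ± 0.46, edgeR adjusted p = 0.9996). Of 10 neutrophil and granulocyte genes, 7 were tested and 0 called, with a median log2 difference of 0.90. Of 6 basophil and mast cell genes, 3 were tested and 0 called, with a median of 1.75, whereas the median of all 4874 genes was 0.00. The summed level of the 10 neutrophil and granulocyte genes was 1159 to 7731 CPM in the surgery replicates and 643 to 3774 CPM in the sham replicates, and that of the 6 basophil and mast cell genes 98.5 to 8607 CPM in surgery and 27.1 to 1248 CPM in sham. Without the 29 cells of cluster 6, 5 of the neutrophil and granulocyte genes were tested, and their median was -0.01.

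Activating NK receptor genes gave no calls. All 13 were tested and 0 called, with a median log2 difference of -0.13. The 13 include Klrb1c, Klra4 and Klra8, which are genes of the rule, so the count and median of this list are a description only. Klrk1 was at 574, 636, 579 and 606 CPM in the surgery replicates and 760, 637, 811 and 622 CPM in the sham replicates, a log2 difference of -0.21 ± 0.13. Klra8 was at 381, 457, 927 and 436 CPM in the surgery replicates and 407, 252, 740 and 401 CPM in the sham replicates, with the 2 groups overlapping throughout. Of 13 inhibitory receptor genes, 10 were tested and 0 called, with a median of 0.16. Klra9 was at 208 ± 60.6 CPM in surgery and 145 ± 51.8 CPM in sham (n = 4 each), a log2 difference of 0.49 ± 0.19 with edgeR's adjusted p = 0.9996.

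Cytotoxic genes showed no shared direction: 8 of 13 were tested and 0 called, with a median log2 difference of -0.04. Gzma was at 480, 241, 359 and 337 CPM in the surgery replicates and 462, 279, 460 and 444 CPM in the sham replicates. Lamp1, the lysosomal membrane protein that reaches the surface when granules are released, was at 124 ± 28.2 CPM in surgery and 86.3 ± 9.89 CPM in sham (log2 difference 0.53 ± 0.21, edgeR adjusted p = 0.9996). Of 15 cytokine receptor genes, 10 were tested and 0 called. Among them Il12rb2, a chain of the interleukin-12 receptor, was at 60.6 ± 21.9 CPM in surgery and 107.6 ± 31.2 CPM in sham (log2 difference -0.68 ± 0.25, edgeR adjusted p = 0.9996).

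Of 22 lymphoid transcription factor genes, 18 were tested and 0 called. Eomes, which drives NK cell maturation, was at 139 ± 19.7 CPM in surgery and 191 ± 19.99 CPM in sham, with every surgery value below every sham value (log2 difference -0.36 ± 0.17, edgeR adjusted p = 0.9996). In the thinned cells, with shallower cells left out, the difference was 0.0026. Of 18 T cell receptor signalling genes, 15 were tested and 0 called, with a median of -0.03. Trac was at 32.8, 25.2, 46.3 and 102 CPM in the surgery replicates and 163, 44.5, 42.8 and 64.6 CPM in the sham replicates, and these values rest on 4 to 27 UMIs each. Its log2 difference was -0.20 ± 0.45 and turned to 0.29 without capture 1 sham replicate 1.

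Gene lists outside lymphoid function gave no calls either. Of 20 interferon-stimulated genes 4 were tested, of 13 MHC class I genes 13, of 15 immediate early genes 13, of 10 heat shock genes 9 and of 15 hypoxia and glycolysis genes 9, and 0 of each list were called. Their median log2 differences were 0.19, 0.01, -0.06, 0.01 and 0.03 in that order. Of 14 genes of the G2 and M phases, 9 were tested and 0 called. All 9 were lower in surgery, with a median of -0.41, while 49.8% of all 4874 genes were higher. Cluster 3, the dividing cells, held 17 surgery and 25 sham cells. It made up 9.52%, 8.96%, 10% and 5.66% of the T, NK and innate lymphoid cells in the surgery replicates. In the sham replicates it made up 13.8%, 10.3%, 5.83% and 7.32%, so the groups overlapped. Mgst2, a microsomal glutathione transferase gene that differed between the groups in the progenitors in earlier results, was at 122 ± 17.9 CPM in surgery and 72.3 ± 15.2 CPM in sham, without overlap (log2 difference 0.73 ± 0.21, edgeR adjusted p = 0.9996).

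In CD3+ cells alone, 0 of 2229 genes passed (0% called) and 75 had an unadjusted p under 0.05 (3.36%); 47 higher (2.11%) and 58 lower (2.6%) did not overlap over 3 surgery and 4 sham replicates. Capture 2 surgery replicate 1 was left out there, since it held 7 such cells and the minimum was 10. The smallest p belonged to Ccl3, a chemokine of activated T and NK cells, at 62.8, 66.4 and 92.0 CPM in the surgery replicates and 495, 189, 403 and 142 CPM in the sham replicates. These 3 surgery values were below all sham values and rest on 6, 6 and 10 UMIs, and edgeR's adjusted p was 0.9996 at a log2 difference of -1.93 ± 0.45. In the replicate left out, Ccl3 was at 634 CPM (21 UMIs in 7 cells), above every sham value, so over all replicates the groups overlapped. With that replicate in the fit the log2 difference was -0.97 and 0 genes were called. Without capture 2 sham replicate 2 the adjusted p was 0.0465, the only call in CD3+ cells when replicates were left out in turn. Rgs1, which limits chemokine receptor signalling, was at 114.9 ± 18.3 CPM in surgery (n = 3) and 218.6 ± 16.2 CPM in sham (n = 4), and S100a11, a calcium-binding protein gene, at 434 ± 155 CPM in surgery and 253 ± 94.2 CPM in sham, both with edgeR's adjusted p = 0.9996; in the replicate left out they were at 241 and 453 CPM, so Rgs1 overlapped too. The lamin gene Lmnb1 was at 81.2 ± 48.4 CPM in surgery and 180 ± 102 CPM in sham, and Tbrg1 at 146 ± 27.1 CPM in surgery and 60.6 ± 25.6 CPM in sham, with 241 and 90.5 CPM in the replicate left out.

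In CD3- cells, 0 of 3457 genes passed (0% called) and 118 had an unadjusted p under 0.05 (3.41%); 30 higher (0.868%) and 43 lower (1.24%) did not overlap. Klra4, the gene of the activating receptor Ly49D, is one of the 11 genes that chose the cells and is described without a test. It was at 290, 453, 207 and 335 CPM in the surgery replicates and 1003, 522, 747 and 682 CPM in the sham replicates. The surgery values were all below the sham values, in both captures. The lowest, 207 CPM in capture 2 surgery replicate 1, rests on 11 UMIs in 4 cells. In the 7 CD3+ cells of that replicate Klra4 was at 1147 CPM, the highest CD3+ value. Over all T, NK and innate lymphoid cells Klra4 was at 389 ± 165 CPM in surgery and 580 ± 95.4 CPM in sham (SD, n = 4 each). There the groups overlapped, with 568 CPM in capture 2 surgery replicate 1 and 498 CPM in capture 1 sham replicate 2. They also overlapped in NK-like cluster 1, with 1399 CPM in capture 1 surgery replicate 2 and 997 CPM in capture 1 sham replicate 1. Among genes outside the rule, the smallest p belonged to Phkb, at 88.8 ± 19.6 CPM in surgery and 35.6 ± 5.97 CPM in sham (edgeR unadjusted p = 0.000554, adjusted p = 0.957). Fbxw11, a ubiquitin ligase adaptor gene, was at 60.5 ± 9.36 CPM in surgery and 125 ± 14.8 CPM in sham. Fgf13, an intracellular fibroblast growth factor homologue, was at 86.1 ± 23.9 CPM in surgery and 156.9 ± 18.8 CPM in sham. The noncoding RNA Gm50021 was at 113 ± 29.7 CPM in surgery and 61.9 ± 19.7 CPM in sham, and none of these passed the adjusted threshold.

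**Figure D5:**
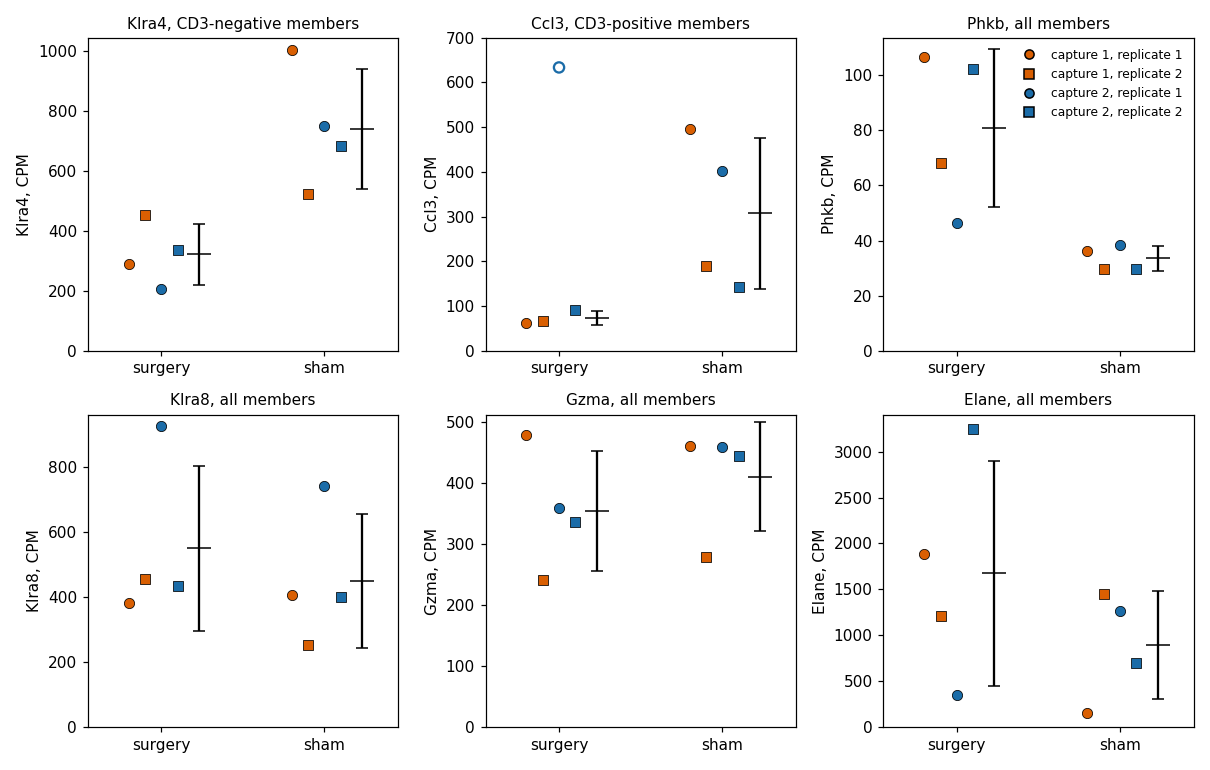
Level, in CPM, of 6 genes in each replicate (points), surgery left of sham, with the group mean and SD as bars; Klra4 is shown in CD3- cells, Ccl3 in CD3+ cells (the open point is the replicate left out of the fit, the mean and the SD) and the others in all T, NK and innate lymphoid cells (members). The groups do not overlap in Klra4 and in Phkb, which has surgery values of 46.3 to 107 CPM and sham values of 29.6 to 38.5 CPM, and they overlap in Ccl3 through the open point at 634 CPM, and in Klra8, Gzma and Elane.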

How the data were processed

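Gene and hashtag UMI counts per barcode were deposited by the authors; Cell Ranger and GRCm38 are named, per the submitters' processing notes, and versions are not given in the sources used here. No count is scaled. Barcodes with at least 1000 gene UMIs, at most 10% mitochondrial UMIs and exactly 1 hashtag of at least 200 counts were kept. Barcodes with several hashtags (602 in capture 1 and 322 in capture 2) were removed and no doublet caller was run. The members, gene lists and tests were chosen with earlier results of these data known, and alternatives added after seeing the data are named as such.

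Counts were summed per replicate and scaled to CPM for description. Groups were compared with edgeR 4.0.16 (filterByExpr, TMM, quasi-likelihood, capture as covariate, groups of at least 10 cells, Benjamini-Hochberg over all genes tested), with DESeq2 1.42.0 as an alternative. The edgeR step was also run on simulated counts. These had the same assumed dispersion for every gene and no effect of capture or of the hashtag-linked sets. Only genes of higher mean level were changed, so the rates do not give the power for lower genes such as Dram2, Phkb and H2bc4. Of genes changed 2-fold there, it called 27% in all cells, 18.75% in CD3+ cells and 17% in CD3- cells. Of genes changed 4-fold, it called 97%, 88.4% and 95.8% in that order. Shares were compared by exact permutation over 70 splits (SciPy 1.17.1). The chosen cells were clustered with scanpy 1.11.5 (1000 variable genes, 15 components, Leiden resolution 0.6) after leaving out the hashtag-linked genes. Those were chosen in the other cells with a pseudocount of 0.5 CPM. Erythroid and granulocyte cells were kept cells outside the chosen ones with at least 20 UMIs of their lineage lists. Genes named in the group comparison were the 5 with the smallest p and fixed genes of each list. Intervals cover counting error only. The CD3+, CD3- and whole sets held 33142 to 166258, 47867 to 301218 and 86310 to 467476 UMIs per replicate. Some genes of the lists are not reported here.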

Additional observations from a re-analysis of the deposited data

Results flagged for a closer look

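The following values are listed because 1 replicate lay far from the other 3 of its group, or because the 2 captures went opposite ways. The gap was past Dixon's 95% critical value for 4 samples in 7 of 51 groups looked at, and chance flags about 1 group in 20. CD3+ cells were 47.2% of the T, NK and innate lymphoid cells in capture 2 surgery replicate 2, above the other surgery replicates. In capture 2 surgery replicate 1, which held 20 of these cells, Klra8 was at 927 CPM, above the other surgery replicates, and Cd63 at 11.6 CPM, below them. In capture 1 sham replicate 1, Dram2 was at 72.4 CPM and Il12rb2 at 154 CPM, both above the other sham replicates. Gzma was at 279 CPM in capture 1 sham replicate 2, below the other sham replicates. Tbrg1 in CD3+ cells was at 99.1 CPM in capture 2 sham replicate 2, above the other sham replicates. The share of T, NK and innate lymphoid cells among kept cells was higher in surgery than in sham by 0.698 percentage points in capture 1, while in capture 2 the difference was -1.41 percentage points. This difference between the captures was not tested.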

How the results depend on the processing

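The difference in the share of T, NK and innate lymphoid cells, averaged over both captures, kept its sign in 17 of 17 alternatives, from -0.626 to -0.0557 percentage points. None of these took a capture alone, and the captures had opposite signs, at 0.698 points in capture 1 and -1.41 points in capture 2. The difference in the CD3+ share ran from -7.62 to 0.589 points when replicates were left out in turn, turning without capture 1 sham replicate 1. Calls by edgeR's adjusted p of 0.05 were 0 in each set of cells. Without the low-count filter they were 23 in all cells, 11 in CD3+ cells and 9 in CD3- cells. Those in all cells included Elane, Cd63 and Phkb (edgeR adjusted p = 3.6e-10, 1.5e-09 and 0.0473). Those in CD3+ cells included Ccl3 (edgeR adjusted p = 0.000206). In all cells, 1 gene was called with a marker minimum of 3 UMIs, and with 2 settings added after seeing the data: replicates sharing gene sets as a block (Elane), and capture 1 alone (Cd63). Leaving out replicates gave 0 to 1 calls in CD3+ cells and 0 in the other sets. Some named genes changed sign on the log2 scale: Gzma was 0.026 in cells without UMIs of other lineages and 0.053 in capture 1 alone, Eomes 0.0026 in thinned cells (shallower cells left out), and Trac 0.71 in capture 2 alone and -1.15 to 0.29 when replicates were left out. The cause was not tested. Same-numbered replicates of a capture deviated together with correlations of -0.08 to 0.11, so the numbers were not taken as pairs, and a replicate block gave 0 calls in each set. Capture 2 alone could not be fitted for CD3+ cells. With all 8 replicates, added after seeing the data, 0 genes were called in CD3+ cells, and the log2 difference of Ccl3 was -0.97. Depth limits the single genes: Ccl3 in CD3+ cells and Trac rest on as few as 6 and 4 UMIs in a replicate.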
